A study of Homo sapiens with 20 samples.

Results

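The insulin-like growth factor (IGF) receptors, their docking adaptors and the secreted IGF binding proteins were followed as a set of 10 genes through 20 established human biliary tract cancer cell lines. The members are the receptors IGF1R (NM_000875) and INSR (NM_000208), the adaptors IRS1 (NM_005544) and IRS2 (NM_003749), and the binding proteins IGFBP2 (NM_000597), IGFBP3 (NM_001013398), IGFBP4 (NM_001552), IGFBP5 (NM_000599), IGFBP6 (NM_002178) and IGFBP7 (NM_001553). They were taken by name, as the entries of the deposited count table whose RefSeq identifier carries these symbols. All 10 were found among 24222 entries. Every line was grown untreated in the same serum-containing medium and gave 1 library of poly(A) RNA, so lines serve as replicates and each spread describes differences among lines; technical spread is not known. By site, 3 lines were ampullary (SNU-478, SNU-869 and TGBC18TKB), 5 extrahepatic (Sk-ChA-1, EGI-1, SNU-1196, SNU-245 and TFK-1), 7 from the gallbladder (NOZ, G415, OCUG-1, Mz-ChA-2, TGBC2TKB, TGBC14TKB and SNU-308) and 4 intrahepatic (HuCCT1, HuH28, SNU-1079 and TKKK). OZ carries both bile duct labels and was kept out of the site comparisons. By origin, 7 lines were metastatic: Mz-ChA-2 came from the liver, and G415, NOZ, OCUG-1, HuCCT1, Sk-ChA-1 and OZ from ascites. The other 13 were from primary tumours. The labels tie each line to a repository (KCLB 6 lines, RIKEN 6, HSRRB 4, DSMZ 2 and Zurich 2) and to no sequencing batch.

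IGF1R and INSR are receptor tyrosine kinases that bind IGF1, IGF2 and insulin with different preference and can pair into hybrid receptors. The activated kinases phosphorylate IRS1 and IRS2, which recruit phosphoinositide 3-kinase and so feed the AKT and mTOR pathway that drives growth and protein synthesis. The IGFBPs are secreted proteins that hold IGFs in the extracellular space, either withholding them from the receptor or delivering them when a protease cleaves the binding protein. IGFBP7 binds IGFs weakly and is counted among the related proteins. In liver and bile duct, where circulating IGF1 is made by hepatocytes, the pathway is studied as a growth signal and a drug target.

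Totals ran from 10.5 to 15.4 M counts per line (M for mega), so the 3 counts that an observed 0 allows correspond to 0.206 to 0.297 counts per M counts (CPM). TMM-scaled library sizes were used for CPM. Poisson intervals and this floor reflect counting error alone. A level is a mean over the cells of a line, so fewer expressing cells and less RNA per cell cannot be told apart. Summed over 7 biliary epithelial markers (keratins 7, 8, 18 and 19, EPCAM, CDH1 and SOX9), the lines ranged from 342 CPM in HuH28 to 13700 CPM in SNU-245, with 6 or 7 of the 7 at 1 CPM or more in every line. HuH28 stood apart. It also had the highest sum of 6 fibroblast markers (8960 CPM, all 6 at 1 CPM or more). SNU-1079 had 4170 CPM with only 2 of the 6 at that level, and TGBC2TKB 2180 CPM with 5. The other lines had 1.24 to 207 CPM. HuH28 recurs below as the highest or lowest line for several members, and the part of these marker transcripts in its values was not tested.

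The start regions of the genes differ in base composition. RefSeq promoter entries on GRCh38.p14 matched 9 of the 10 members. They are shown for IGF1R, the member that varied least between lines, for IRS2, the member without a count in HuH28, and for IGFBP3 and IGFBP5, binding proteins with wide spreads. Each run holds the 100 bases before the annotated start, 5′ to 3′ on the strand of the gene, with CpG dinucleotides in capitals. The reads were aligned to an older build, so these positions were not used to locate any read.
IGF1R, chr15:98648439-98648538, plus strand: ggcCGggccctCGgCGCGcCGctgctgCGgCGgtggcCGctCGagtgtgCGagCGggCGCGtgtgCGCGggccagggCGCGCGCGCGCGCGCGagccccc
IRS2, chr13:109786584-109786683, minus strand: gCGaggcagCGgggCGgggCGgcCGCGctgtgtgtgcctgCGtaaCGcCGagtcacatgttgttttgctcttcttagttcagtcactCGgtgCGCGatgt
IGFBP3, chr7:45921273-45921372, minus strand: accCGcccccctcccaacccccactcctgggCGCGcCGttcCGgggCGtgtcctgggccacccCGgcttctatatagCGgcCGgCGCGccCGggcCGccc
IGFBP5, chr2:216695550-216695649, minus strand: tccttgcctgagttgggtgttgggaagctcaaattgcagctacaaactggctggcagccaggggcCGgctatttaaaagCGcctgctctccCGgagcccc

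Over the 250 bases before the start, IGF1R had 48 CpG dinucleotides, IRS2 42, IRS1 39, IGFBP3 32, INSR 28 and IGFBP4 24, against a median of 11 over all 35116 promoters of the table. IGFBP6 had 9 and IGFBP5 had 8. IGFBP2 has 3 annotated starts, with 7, 22 and 4. The receptors and adaptors were thus all CpG-rich, while the binding proteins lay on both sides of the median. The letters TATAAA, searched on both strands, occurred in the IGFBP4 window alone among the 9 members, and in 10.7% of all promoters. The letters GTAAACA, a core bound by forkhead factors, occurred on either strand in the IGFBP6 window alone, and in 2.98% of all promoters. These are matches of letters and nothing more.

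Receptors and adaptors were detected nearly everywhere, and the binding proteins differed in how many lines used them. IGF1R and IGFBP4 had at least 7.35 CPM in all 20 lines, and INSR and IRS1 at least 1.13 CPM. IRS2 was counted in every line but HuH28. IGFBP2 was under 1 CPM in 12 lines, IGFBP5 in 13, IGFBP7 in 8 and IGFBP3 in 6. The SD of log2 CPM was 0.98 for IGF1R, 1.61 for IRS1, 1.65 for INSR, 1.94 for IGFBP6, 1.98 for IGFBP4 and 2.01 for IRS2, against a median of 0.82 over all genes. It was 3.84 for IGFBP5, 3.95 for IGFBP2, 4.39 for IGFBP7 and 4.71 for IGFBP3, the last at percentile 99.9 of all genes.

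**Figure D1:**
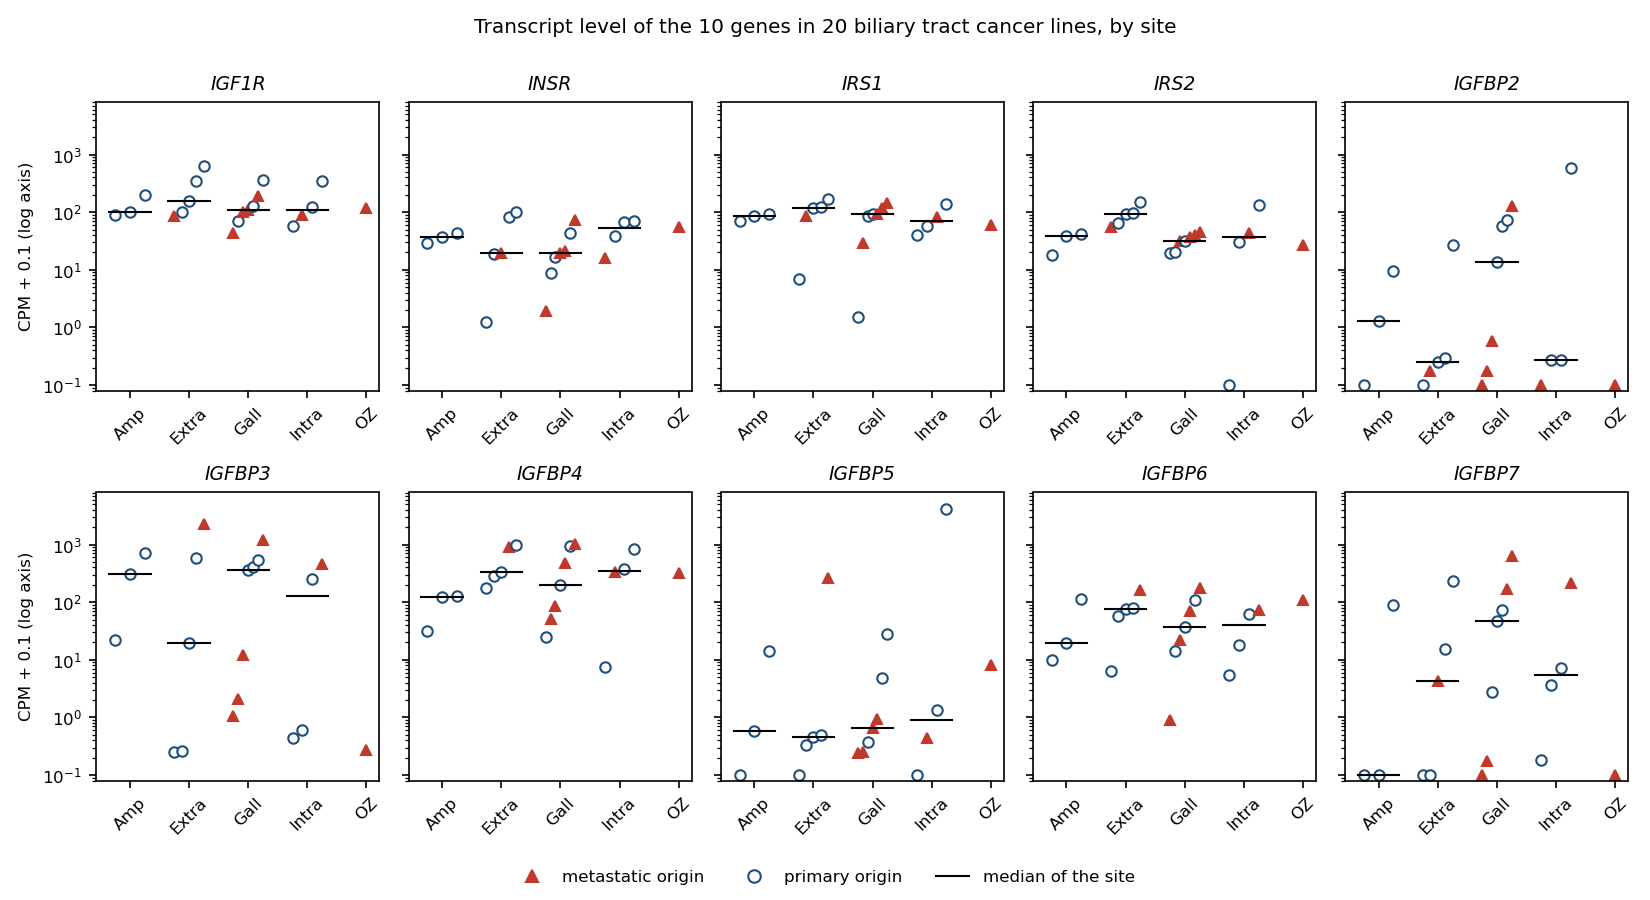
Level of each of the 10 genes (CPM + 0.1, log axis) in every line, arranged by site: Amp, ampullary; Extra, extrahepatic; Gall, gallbladder; Intra, intrahepatic; OZ carries both bile duct labels. Red triangles are metastatic lines, open circles primary lines, and bars the median of a site; IGF1R stays between 43.4 and 634 CPM, whereas IGFBP3 runs from 0.153 to 2310 CPM and IGFBP5 from 0 to 4120 CPM.

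IGF1R, the receptor for IGF1 and IGF2, was present in every line and ranged 14.6-fold, from 43.4 CPM in NOZ to 634 CPM in TFK-1, with a median of 114 CPM. The ampullary lines SNU-478, SNU-869 and TGBC18TKB had 196, 99.5 and 88.3 CPM. The extrahepatic lines had 634 CPM in TFK-1, 345 in SNU-1196, 155 in EGI-1, 102 in SNU-245 and 84.7 in Sk-ChA-1. In the gallbladder lines IGF1R lay between 43.4 and 357 CPM with a median of 109 CPM, and TGBC14TKB was the highest. HuH28, SNU-1079, HuCCT1 and TKKK, the intrahepatic lines, had 350, 125, 91 and 57 CPM, and OZ had 119 CPM. Each of the 4 sites overlapped the others. Only 4 lines exceeded 200 CPM, and they were spread over 3 sites.

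INSR, the insulin receptor, was more uneven, from 1.13 CPM in TFK-1 to 99.9 CPM in SNU-245, an 88.1-fold range with a median of 32.5 CPM. The extrahepatic group held both ends, with 99.9 CPM in SNU-245, 82.1 in EGI-1, 19.8 in Sk-ChA-1, 18.6 in SNU-1196 and 1.13 in TFK-1. Gallbladder lines ran from 1.86 CPM in NOZ to 74.3 CPM in Mz-ChA-2, with a median of 19.1 CPM. The ampullary lines had 43.9, 36.4 and 28.7 CPM. The intrahepatic lines had 15.8 CPM in HuCCT1, 37.8 in SNU-1079, 66.6 in TKKK and 69.6 in HuH28, and OZ had 55.2 CPM. TFK-1 stood at −4.33 log2 units from the median of the lines and was the only line called low for INSR under the rule for extremes, which asks for at least 2.5 log2 units and 3 scaled median absolute deviations. Its value rests on 16 counts (95% Poisson interval 0.648 to 1.84 CPM). NOZ rests on 24 counts (1.19 to 2.77 CPM), so the intervals of these lowest lines overlap.

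TFK-1 therefore combined the highest IGF1R with the lowest INSR of the 20 lines. Per kilobase of the longest coding transcript (a level, not a difference), TFK-1 had 51.8 CPM per kb of IGF1R and 0.127 of INSR, a log2 ratio of 8.67. NOZ followed at 4.09 with both receptors at or near their lowest, then SNU-1196 at 3.76 and SNU-308 at 3.45. In 2 lines INSR was the higher receptor per kb, with log2 ratios of −0.67 in TKKK and −0.42 in SNU-245. The remaining 14 lines lay between 0.10 and 2.87.

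**Figure D2:**
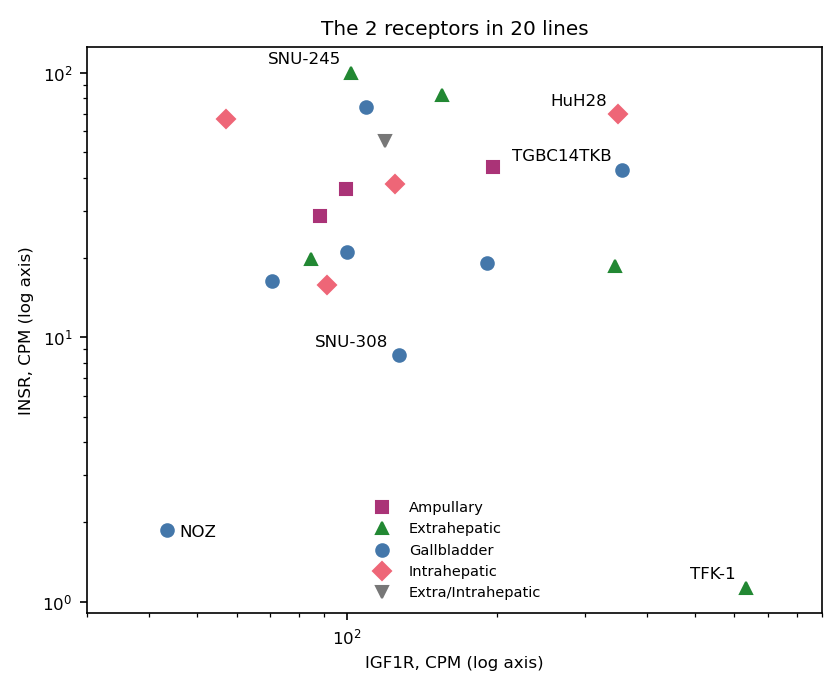
INSR against IGF1R in the 20 lines, both in CPM on log axes, with the site of each line by colour and shape. TFK-1 stands alone at the lower right with 634 CPM of IGF1R and 1.13 CPM of INSR, and NOZ at the lower left with 43.4 and 1.86 CPM.

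IRS1, the adaptor first described for the insulin receptor, was at 29.3 to 167 CPM in 18 lines and lower in 2, with a median of 86.5 CPM. The ampullary lines had 91.8 CPM (TGBC18TKB), 87.3 (SNU-869) and 70.4 (SNU-478). Among extrahepatic lines SNU-1196, EGI-1, TFK-1 and Sk-ChA-1 had 167, 122, 120 and 85.8 CPM, while SNU-245 had 6.73 CPM. The gallbladder lines ran from 1.42 CPM in TGBC14TKB to 143 CPM in NOZ with a median of 91.2 CPM. The intrahepatic lines had 39.6 CPM in TKKK, 57.8 in HuH28, 81.1 in HuCCT1 and 136 in SNU-1079, and OZ had 59.8 CPM. TGBC14TKB stood at −5.5 and SNU-245 at −3.59 log2 units from the median, and both met the rule for extremes. The TGBC14TKB value rests on 20 counts (0.868 to 2.19 CPM).

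IRS2, the second adaptor of the same receptors, was counted in 19 lines and gave no read in HuH28. The 5 extrahepatic lines had 149 CPM in SNU-245, 94.8 in EGI-1, 91.2 in SNU-1196, 65.4 in TFK-1 and 55.6 in Sk-ChA-1. Every line of the other sites was at 45.8 CPM or less, except TKKK with 132 CPM. Ampullary lines had 41.5, 39.2 and 18.1 CPM, and gallbladder lines 19.2 to 45.8 CPM with a median of 31.3 CPM. The intrahepatic lines spanned most of the range, with 132 CPM in TKKK, 44.2 in HuCCT1, 29.7 in SNU-1079 and 0 in HuH28. With no count, HuH28 allows up to 0.323 CPM (95% Poisson), and the highest line was at least 569-fold higher against the floor of 3 counts in that library.

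SNU-245 and TKKK, the 2 lines with most IRS2, had 6.73 and 39.6 CPM of IRS1, ranks 19 and 17 of 20 from the highest. HuH28, without IRS2, had 57.8 CPM of IRS1, the neighbouring rank 16. Over the 20 lines IRS1 and IRS2 were unrelated on log2 CPM, with a Pearson r of −0.05 and a Spearman rho of 0.05. Per kb, and with 0.5 CPM added to both genes, the log2 ratio of IRS1 to IRS2 was −4.63 in SNU-245, −4.3 in TGBC14TKB, −1.98 in TKKK and −0.69 in OCUG-1. The other 15 lines with IRS2 counts lay between 0.11 and 1.99. No line was low in both adaptors: the lowest IRS1 line, TGBC14TKB, had 31.3 CPM of IRS2.

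**Figure D3:**
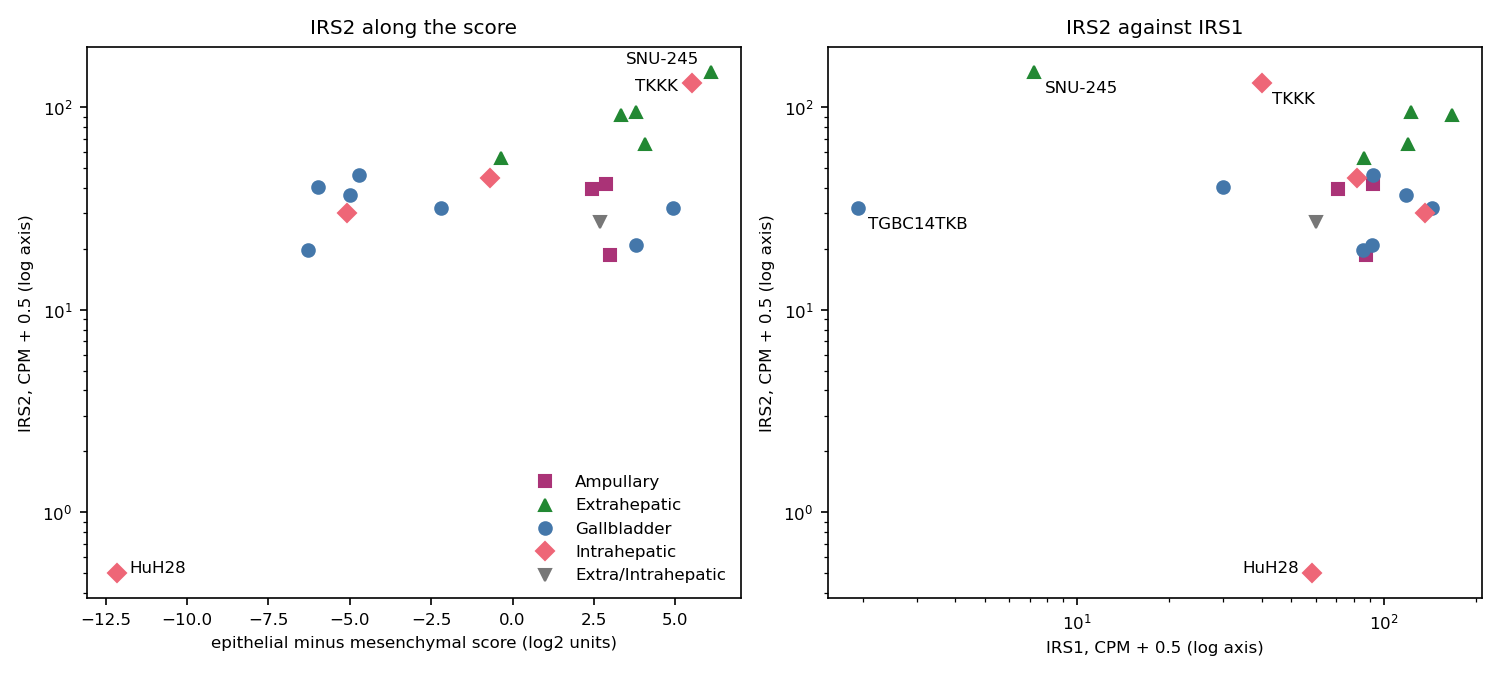
Left, IRS2 (CPM + 0.5, log axis) against the epithelial minus mesenchymal score (log2 units), and right, IRS2 against IRS1 (both CPM + 0.5, log axes), for the 20 lines by site. HuH28, with no IRS2 count and a score of −12.16, lies far from the other 19 lines in the left panel, and SNU-245 and TGBC14TKB stand to the left of the others in the right panel with 6.73 and 1.42 CPM of IRS1.

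Among the binding proteins, IGFBP4, IGFBP6 and IGFBP3 were the ones most lines used. IGFBP4, which binds IGFs and is cleaved by the protease PAPPA, ran from 7.35 CPM in TKKK to 1040 CPM in G415, with 15 lines at 100 CPM or more. The ampullary lines had 127, 124 and 31 CPM (94.2 ± 54.8, SD, n = 3). The extrahepatic lines had 968, 924, 333, 281 and 174 CPM (536 ± 379, SD, n = 5), the gallbladder lines 24.6 to 1040 CPM (402 ± 428, SD, n = 7) and the intrahepatic lines 839, 374, 334 and 7.35 CPM (388 ± 342, SD, n = 4). OZ had 319 CPM. The 4 sites overlapped, and only the ampullary lines had none above 127 CPM.

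IGFBP6, which prefers IGF2 over IGF1, was at 10 CPM or more in 16 lines and highest in NOZ (179 CPM) and Sk-ChA-1 (164 CPM), with a median of 60.5 CPM. Extrahepatic lines had 164, 80.6, 76.5, 57.7 and 6.23 CPM. Ampullary lines had 114, 19.6 and 9.74 CPM, intrahepatic lines 71.7, 63.4, 18.2 and 5.41 CPM, and OZ 108 CPM. Gallbladder lines spread from 0.794 CPM in Mz-ChA-2 to 179 CPM with a median of 36.8 CPM. Mz-ChA-2 stood at −5.56 log2 units from the median of the lines, on 10 counts (0.381 to 1.46 CPM), and was the sole extreme for this gene.

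IGFBP3, the main carrier of IGFs in blood, had the widest spread of the 10 genes. It reached 2310 CPM in Sk-ChA-1, 1210 in G415, 704 in TGBC18TKB, 588 in TFK-1 and 550 in TGBC2TKB, and 10 lines were over 100 CPM. At the other end SNU-1196, EGI-1, OZ, SNU-1079, TKKK and Mz-ChA-2 had 0.153 to 0.953 CPM, on 2 to 12 counts each. The remaining 4 lines were SNU-869 with 21.9 CPM, SNU-245 with 19.2, NOZ with 12 and OCUG-1 with 2.02. Low and high lines stood in the same site: Sk-ChA-1 and TFK-1 were extrahepatic, as were EGI-1 and SNU-1196, and HuCCT1 (464 CPM) was intrahepatic like TKKK (0.507 CPM). IGFBP1, a liver-secreted binding protein whose gene lies next to IGFBP3, had a median of 4.42 CPM and its highest level, 110 CPM, in G415. OZ had 49.8 CPM of IGFBP1 beside 0.167 CPM of IGFBP3, and TGBC14TKB no count of IGFBP1 beside 355 CPM of IGFBP3.

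IGFBP2, which binds IGF2 and also matrix and integrins, was confined to fewer lines. HuH28 had 594 CPM, NOZ 129, SNU-308 73.8, TGBC2TKB 57.8, TFK-1 27.2, TGBC14TKB 13.8 and SNU-869 9.32. All 7 met the rule for extremes, but the median of 0.183 CPM lay near the floor, so a line of several CPM meets it. SNU-478 followed with 1.19 CPM, and the other 12 lines had 0 to 0.476 CPM. Of the 7 lines, 4 were from the gallbladder and 1 from each of the other sites.

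IGFBP5, a binding protein that also attaches to extracellular matrix, was dominated by HuH28 with 4120 CPM. Sk-ChA-1 had 262 CPM, TGBC2TKB 28 and SNU-478 14.3, and these 4 met the rule for extremes, again against a median near the floor (0.435 CPM). OZ (8.01 CPM), TGBC14TKB (4.83) and SNU-1079 (1.25) came next, and 13 lines were under 1 CPM. IGFBP5 lies beside IGFBP2 in the genome, and the pair overlapped only in part. HuH28 was the highest line for both, TGBC2TKB was high for both (57.8 CPM of IGFBP2), while Sk-ChA-1 had 0.0746 CPM of IGFBP2, and NOZ had 0.854 CPM of IGFBP5 beside its 129 CPM of IGFBP2.

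IGFBP7, a matrix-associated relative of the family, was highest in Mz-ChA-2 (624 CPM), followed by SNU-1196 (230), HuCCT1 (213), OCUG-1 (170), SNU-478 (89.2), TGBC2TKB (73.6), SNU-308 (47.5) and EGI-1 (15.1). In 4 lines it lay between 2.63 and 7.08 CPM, in NOZ and TKKK at 0.0776 and 0.0845 CPM, and 6 lines gave no count. An antisense gene overlaps its locus. The library kit marks strand, and the sources used here do not give the strand setting of the counting, so reads of the pair cannot be told apart.

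Taking each gene per kb of transcript, the summed level of the 6 binding proteins ran from 8.32 CPM per kb in TKKK to 1580 in HuH28, with 1560 in Sk-ChA-1 and 1030 in G415. The leading binding protein was IGFBP3 in 8 lines, IGFBP4 in 8, IGFBP7 in 2, and IGFBP5 and IGFBP6 in 1 each. IGFBP7 made up 94.7% of the sum in Mz-ChA-2 and 67.0% in OCUG-1. In HuH28 IGFBP5 was 41.9%, and in TKKK IGFBP6 was 55.2% of a very small total. IGFBP4 led most strongly in SNU-245, with 85.4%, and IGFBP3 in TGBC14TKB, with 80.5%. In TKKK, the line with the smallest sum (8.32 CPM per kb), the receptors were at similar levels, with 4.66 CPM per kb of IGF1R and 7.44 of INSR.

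**Figure D4:**
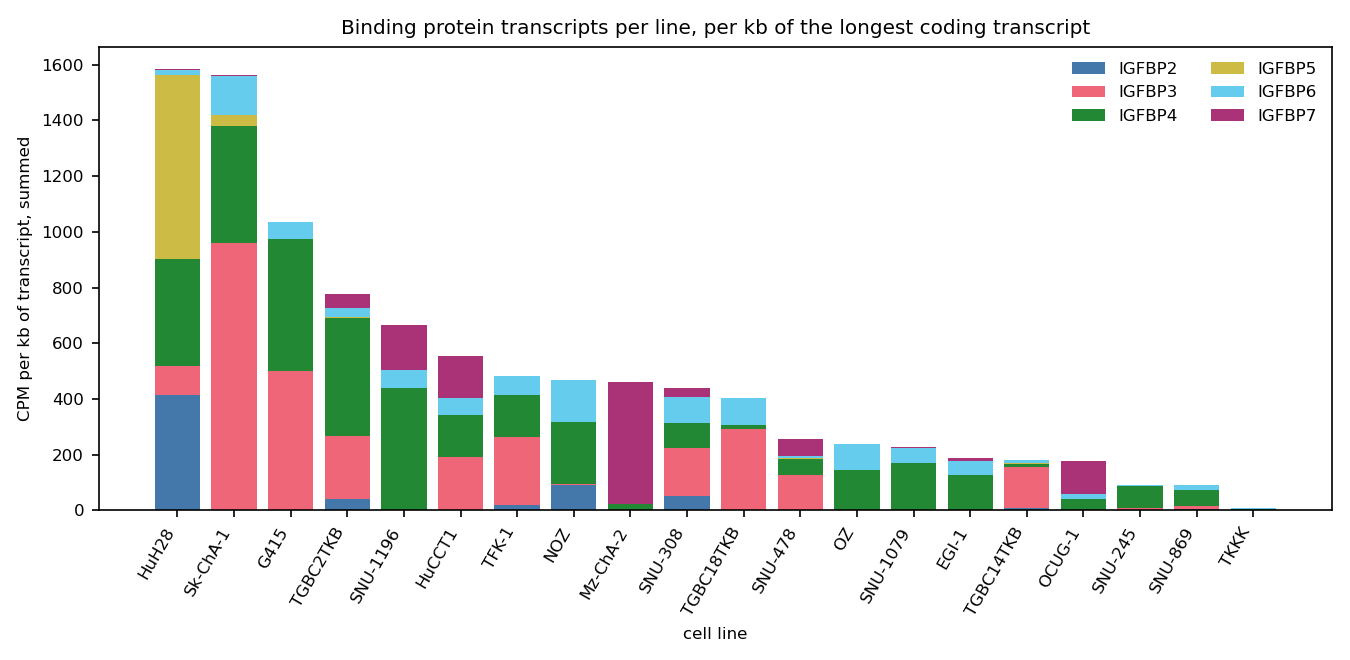
Summed binding protein transcripts (CPM per kb of the longest coding transcript, linear axis from 0) in each line, stacked by gene and ordered by the sum. HuH28 (1580) and Sk-ChA-1 (1560) are highest and TKKK (8.32) lowest, and the leading gene changes from line to line.

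Site was compared by contrasting each of the 4 sites with the mean of the other 3 in edgeR's quasi-likelihood test over 16615 genes in 19 lines, with Benjamini-Hochberg adjustment and a threshold of 0.05. None of the 10 members passed in any site, and none in the joint test of the 4 sites. Almost nothing else did: the share of all genes called was 0.00602% in ampullary lines (1 gene), 0% in extrahepatic, gallbladder and intrahepatic lines, and 0.00602% in the joint test. At an unadjusted p under 0.05 the members numbered 0, 0, 0 and 2 in those 4 sites, and 1 in the joint test. Of all genes, 873, 1164, 2051 and 1574 reached that level in the 4 sites, which is 5.25%, 7.01%, 12.3% and 9.47%, and 1771 (10.7%) in the joint test. For every member the lines of each site overlapped those of the rest. The share of all genes with such overlap was not counted, so this says nothing particular about the members.

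The members nearest to a call were IGFBP5 and IGFBP2 in the intrahepatic lines. IGFBP5 had no count in TKKK, 0.341 CPM in HuCCT1, 1.25 in SNU-1079 and 4120 in HuH28, and its log2 difference from the other sites was 6.57 (SE 2.23, adjusted p = 0.296 by edgeR). IGFBP2 had 0.169, 0, 0.167 and 594 CPM in the same 4 lines, with a log2 difference of 4.04 (SE 1.86, adjusted p = 0.510 by edgeR). Each rested on HuH28. Without that line the intrahepatic difference was −4.33 for IGFBP5 (adjusted p = 0.949 by edgeR) and −6.23 for IGFBP2 (adjusted p = 0.881 by edgeR), the opposite direction. The joint test of IGFBP5 gave an adjusted p of 0.403 by edgeR.

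In the remaining sites no member had an unadjusted p under 0.05, and the member of smallest p differed. In ampullary lines it was IGFBP4, at −2.25 log2 units (SE 1.19, adjusted p = 0.923 by edgeR). In extrahepatic lines it was IRS2, at 1.28 (SE 0.68, adjusted p = 0.754 by edgeR), with group levels of 91.3 ± 36.5 CPM in extrahepatic lines against 32.9 ± 12.9 in ampullary, 32.1 ± 9.74 in gallbladder and 51.5 ± 56.8 CPM in intrahepatic lines (SD, n = 5, 3, 7 and 4). In gallbladder lines it was IGFBP5, at −3.69 (SE 2.17, adjusted p = 0.515 by edgeR), which was −0.08 without HuH28 and −5.81 without TGBC2TKB. The median log2 difference of the 10 members was −0.61 in ampullary lines against −0.11 over all genes, and 0.75 in extrahepatic lines against −0.02. It was 0.01 in gallbladder lines against 0.11, and 0.08 in intrahepatic lines against 0.04.

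Origin gave no call either: 0 of 10 members and 0% of 14843 genes passed between metastatic and primary lines (edgeR, adjusted p under 0.05). Unadjusted, 1 member and 1147 genes (7.73%) had p under 0.05. The member was IGF1R, at 43.4 to 191 CPM with a median of 100 CPM in metastatic lines, against 57 to 634 CPM with a median of 127 CPM in primary lines. Its log2 difference was −0.98 (SE 0.45, adjusted p = 0.614 by edgeR), the groups overlapped, and no metastatic line exceeded 191 CPM whereas 5 primary lines did. IRS1 differed least, with a median of 85.8 CPM in metastatic and 87.3 CPM in primary lines. The median log2 difference of the members was −0.21, against −0.02 over all genes.

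Epithelial and mesenchymal transcripts separate the lines of the series. A score was computed as the mean log2 level of 12 epithelial genes minus that of 12 mesenchymal genes, each centred over the lines, and its extremes were −12.16 (HuH28) and 6.10 (SNU-245). Each gene was tested along it with limma over 14821 genes, the score genes left out, and 8.04% of these were called (4.41% higher and 3.64% lower with a rising score). That is 1192 genes, and 642 were called without HuH28. Among the members 1 of 10 was called. IRS2 was higher in more epithelial lines, by 0.27 log2 units per unit of score (SE 0.07, adjusted p = 0.0136 by limma). Across the 20 lines its Pearson r with the score was 0.67 (permutation p = 0.00134) and its Spearman rho 0.55 (permutation p = 0.0142). Its highest lines, SNU-245 and TKKK, had the highest scores (6.10 and 5.52), and HuH28 had no read.

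The IRS2 call rested on HuH28, in which fibroblast markers were also highest. Without that line the slope was 0.09 (adjusted p = 0.304 by limma) and r was 0.44 (permutation p = 0.0591), and without HuH28 and TGBC2TKB r was 0.36. With the repository in the fit the slope was 0.23 (adjusted p = 0.0837 by limma). Within a repository r was 0.41 in 6 KCLB lines (exact permutation p = 0.465) and 0.58 in 6 RIKEN lines (exact permutation p = 0.237), both positive and neither past the threshold. The other 3 repositories hold too few lines for such a value.

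IGFBP5 and IGFBP4 had slopes of −0.38 (adjusted p = 0.118 by limma) and −0.17 (adjusted p = 0.205 by limma) along the score, with unadjusted p of 0.0158 and 0.0414, so 3 of 10 members were under 0.05 before adjustment against 21.9% of all genes. The remaining 7 had adjusted p from 0.377 to 1, and INSR and IGF1R were flat, with slopes of 0.00 (SE 0.07) and 0.01 (SE 0.04).

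Pairs of members were compared over the 20 lines on log2 CPM, 45 pairs in all, with p from 100000 permutations adjusted over them. Pearson r ran from −0.72 to 0.55 and was positive in 23 pairs. By r, 1 pair passed: IRS2 and IGFBP2, at −0.64 (adjusted permutation p = 0.0252), with a rho of −0.51 (adjusted permutation p = 0.244). The 7 lines with most IGFBP2 were, from the highest down, HuH28, NOZ, SNU-308, TGBC2TKB, TFK-1, TGBC14TKB and SNU-869. Their IRS2 levels were 0, 31.2, 20.5, 19.2, 65.4, 31.3 and 18.1 CPM, so that TFK-1 alone was above the IRS2 median of 39.5 CPM. Without HuH28 and SNU-245 r was −0.50, and it was −0.72 within KCLB (adjusted exact permutation p = 0.668) and −0.65 within RIKEN lines (0.625), neither past the threshold. The call was lost when HuH28 (adjusted permutation p = 0.327), EGI-1 (0.0540), SNU-308 (0.0569) or TGBC2TKB (0.0769) was left out.

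By rank, INSR and IGFBP6 passed, with a rho of −0.69 (adjusted permutation p = 0.0454) and an r of −0.58 (adjusted permutation p = 0.128). The 3 lines with least INSR (TFK-1, NOZ and SNU-308) had 80.6, 179 and 110 CPM of IGFBP6, and the 3 with most (SNU-245, EGI-1 and Mz-ChA-2) had 6.23, 57.7 and 0.794 CPM. Without TFK-1 and NOZ r was −0.61, within KCLB lines −0.87 (adjusted exact permutation p = 0.375) and within RIKEN lines −0.80 (0.406). With any 1 line left out r was −0.63 to −0.53 and never passed (adjusted permutation p from 0.0736 to 0.258). The rho was not computed again in these subsets. The p of r and of rho were adjusted separately, with no allowance for trying both. The pair of largest r, IRS2 and IGFBP5 (r = −0.72, adjusted permutation p = 0.0902, rho = −0.58), was −0.33 without HuH28 and passed only without Sk-ChA-1 (−0.85, adjusted permutation p = 0.0166). IGFBP4 and IGFBP6 had the most positive r (0.55, adjusted permutation p = 0.128, rho = 0.48), which passed only without TGBC18TKB (0.67, adjusted permutation p = 0.0443). For the genomic neighbours IGFBP2 and IGFBP5 r was 0.45 (adjusted permutation p = 0.322) and 0.16 without HuH28, with −0.17 within KCLB and 0.96 within RIKEN lines.

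Of the ligands and remaining receptors, 2 of 5 could be tested. IGF2, the ligand bound by IGF1R and one INSR isoform, had 4280 CPM in Mz-ChA-2, 22.4 in SNU-1079 and 0.156 to 15.3 CPM in the other 18 lines. IGF1 had 36.8 CPM in HuH28 (421 counts), 1.10 CPM in SNU-478 and at most 3 counts elsewhere. Insulin itself had at most 0.401 CPM (EGI-1). IGF2 was not called by site or origin. Its log2 difference was 7.01 in metastatic against primary lines (SE 1.70, adjusted p = 0.273 by edgeR) and −2.27 without Mz-ChA-2. In gallbladder lines it was 7.40 (SE 1.98, adjusted p = 0.215 by edgeR) and −0.25 without Mz-ChA-2. Mz-ChA-2 is also the line with the least IGFBP6 and the most IGFBP7. IGF2R, which clears IGF2 without signalling through a kinase, was lower in more epithelial lines, at −0.12 log2 units per unit of score (SE 0.03, adjusted p = 0.00753 by limma). It kept this call with any line left out, and r was −0.72 over all lines, −0.66 within KCLB and −0.91 within RIKEN lines. OCUG-1 and HuH28 had 670 and 510 CPM of IGF2R, and OZ 86.9 CPM.

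Among 9 genes that release or share the binding proteins' role, 7 were tested along the score and 1 was called: ADAM12, a protease that cleaves IGFBP3 and IGFBP5, was lower in more epithelial lines, at −0.41 (SE 0.11, adjusted p = 0.0237 by limma). It had 380 CPM in HuH28 and 179 CPM in TGBC2TKB, a median of 0.431 CPM, and lost the call without HuH28 (adjusted p = 0.338 by limma), SNU-1079 (0.0673) or TGBC2TKB (0.0632). HTRA1, a secreted serine protease that cleaves IGFBPs, had 1190 CPM in HuH28 and 241 in Sk-ChA-1, the 2 lines with most IGFBP5. Its log2 difference in intrahepatic lines was 4.16 (SE 1.28, adjusted p = 0.235 by edgeR), and 1.70 without HuH28 (adjusted p = 0.960 by edgeR). PAPPA was at 90.6 CPM in OCUG-1, 32.7 in TGBC2TKB, 21.6 in TFK-1 and 18.0 in HuH28.

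Of 13 receptor-proximal genes, 12 were tested and none was called in any comparison. The nearest was SOCS3, a feedback inhibitor that binds the receptors and IRS proteins, at −0.15 along the score (SE 0.05, adjusted p = 0.0559 by limma). It passed without HuH28 (−0.23, adjusted p = 0.0131 by limma) and without TFK-1 (−0.17, adjusted p = 0.0275). GRB10, an adaptor that restrains both receptors, had a log2 difference of −1.44 in extrahepatic lines (SE 0.50, adjusted p = 0.550 by edgeR) and 1.24 in intrahepatic lines (SE 0.46, adjusted p = 0.355 by edgeR). IRS4, a further adaptor of the family, had at most 2 counts in any line.

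In the PI3K, AKT and mTOR list, 24 of 24 genes were tested along the score. PIK3CD, a catalytic subunit of phosphoinositide 3-kinase known mainly from leukocytes, was lower in more epithelial lines, with a slope of −0.17 (SE 0.05, adjusted p = 0.0436 by limma), which stayed past the threshold in 9 of 20 fits that left out a line (adjusted p = 0.118 by limma without HuH28). By site and origin none of the 24 was called. INPPL1, a lipid phosphatase acting on the product of PI3K, came nearest, at 1.29 in intrahepatic lines (SE 0.31, adjusted p = 0.153 by edgeR), with 1080 CPM in TKKK, and 0.66 without that line (adjusted p = 0.495 by edgeR). The 3 IGF2 mRNA-binding proteins were not called in any comparison, and IGF2BP1 was highest in Mz-ChA-2, at 537 CPM, the line with most IGF2.

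For each member the genes most alike over the 20 lines were listed by Pearson r of log2 CPM among 12745 genes with a mean of at least 5 CPM. Being the highest of so many values, these r carry no p, and the part of HuH28 in them was not tested. IRS2 was closest to PLEKHA6 (0.90) and NNT-AS1 (0.89). IGF1R was closest to the heparan sulfate sulfotransferase HS6ST1 (0.80), INSR to RELL1 (0.82) and IRS1 to the surface protein TM4SF1 (0.79). IGFBP2 was closest to the transcription factor TBX18 (0.81), IGFBP3 to the keratin KRT17 (0.74) and IGFBP4 to ITPRIP (0.83). IGFBP5 was closest to LDLRAD4 (0.84), IGFBP6 to C16orf74 and ABTB3 (0.84 each), and IGFBP7 to its antisense partner IGFBP7-AS1 (0.95). No member was among the 3 nearest of another.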

How the data were processed

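The deposited table holds raw counts per gene, in whole numbers and without normalization by the authors. Per the submitters' processing notes, which give hg19 as the build, reads went through featureCounts, TopHat2 2.0.8, Trimmomatic and Picard 1.69, in no stated order. The annotation release is not given in the sources used here. Of 24222 identifiers, 23204 took a symbol from a RefSeq gene table, 348 from GENCODE metadata and 670 (1.53% of counts) kept their identifier.

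Counts were scaled with TMM and tested with edgeR 4.0.16 in R 4.3.3 (filterByExpr, robust quasi-likelihood, two-sided) by site (common dispersion 0.915) and origin (0.782), and with limma 3.58.1 (trend, robust, prior count 2) along the score. Exact permutation tests served 6 lines. A pathway gene was named if called, up to 4 per list, otherwise the 1 of smallest p per list and comparison; some genes that met the naming rules are not reported here. The 3 nearest genes were ranked for each member. Lengths are of the longest coding transcript in GENCODE v29. Members, lists and rules were chosen with earlier results of these data known. Scripts were tested on simulated data. Alternatives, with some subsets of lines added after the data were seen, were RLE scaling, DESeq2 1.42.0, no filter, other prior count, repository, origin or site as covariate, and each line left out. In the repository covariate DSMZ and Zurich were merged into a single level.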

Additional observations from a re-analysis of the deposited data

Results flagged for a closer look

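Lines were checked for standing apart within their site or origin group by the gap to the nearest line divided by the range of the group on log2(CPM + 0.5), in groups of 4 to 7 lines. For normally distributed values chance would mark about 1 in 20 groups, and 9 of 40 were marked here. The 2 shares cannot be compared. IGFBP2 and IGFBP5 were under 1 CPM in 12 and 13 lines, which favours a mark for any expressing line, and the metastatic group reuses lines of the site groups. IRS1 in SNU-245 lay under the extrahepatic lines, at 6.73 CPM against 85.8 CPM in the nearest (ratio 0.789). IRS1 in TGBC14TKB lay under the gallbladder lines, at 1.42 CPM against 29.3 CPM (0.635). IGFBP2 stood above its group in 3 cases: TFK-1 among extrahepatic lines (27.2 against 0.198 CPM, ratio 0.917), HuH28 among intrahepatic lines (594 against 0.169 CPM, ratio 0.959) and NOZ among metastatic lines (129 against 0.476 CPM, ratio 0.880). IGFBP5 did so in Sk-ChA-1 among extrahepatic lines (262 against 0.396 CPM, ratio 0.907) and among metastatic lines (262 against 8.01 CPM, ratio 0.571), and in HuH28 among intrahepatic lines (4120 against 1.25 CPM, ratio 0.861). IGFBP6 in Mz-ChA-2 lay under the metastatic lines, at 0.794 CPM against 22.0 CPM (0.579).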

How the results depend on the processing

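No paired analysis was possible because the labels give no replicate numbers that could pair lines. No member was called by site or origin under RLE scaling, DESeq2, no filter, with repository, origin or site as a covariate, or with any line left out. Under DESeq2 a gene given no adjusted p counted as not called, and members in that state were not counted. IGF2, outside the members, had none in ampullary and gallbladder lines. The count of members called along the score was 1, 0 with repository as a covariate, and 0 to 1 with a line left out (0 without HuH28). DESeq2 called 114 genes in ampullary, 188 in extrahepatic, 380 in gallbladder and 266 in intrahepatic lines, 312 jointly and 181 by origin, against 1, 0, 0, 0, 1 and 0 by edgeR, and passed HTRA1 in ampullary and intrahepatic lines (adjusted p = 0.0499 and 0.0409) and INPPL1 in intrahepatic lines and jointly (0.0199 and 0.0433). Repository as a covariate gave 693 genes along the score and omission of HuH28 642, against 1192, and 0 in ampullary lines and jointly; origin as a covariate gave 0, 0 and 4 in gallbladder lines. Along the score ADAM12 missed the threshold with repository (adjusted p = 0.0742) and with a prior count of 0.5 (0.0576), and PIK3CD with repository (0.0633). DESeq2 reversed IGF2 in ampullary (0.45) and gallbladder lines (−0.30) and by origin (−1.60). With repository IGFBP2 in intrahepatic lines was −1.59 and IGF2 by origin −0.71, and within KCLB lines r of IGFBP2 and IGFBP5 was −0.17. With a line left out, log2 values reversed within these ranges: intrahepatic IGFBP2 −6.23 to 5.88, IGFBP5 −4.33 to 9.12 and IGF2R −0.08 to 0.62; IGF2 −4.35 to 0.47 (ampullary), −0.25 to 8.17 (gallbladder) and −2.27 to 7.54 (origin); IGF2BP1 by origin −1.94 to 1.14; IGF2BP3 along the score −0.09 to 0.13. Except where a line left out shows it, the cause was not tested. A count of 10 to 24 behind the lowest INSR, IRS1 and IGFBP6 values limits their precision.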

Other observations

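IGFBP1, the liver-secreted binding protein, had a median of 38.4 CPM (0.0794 to 110 CPM) in metastatic lines and of 1.26 CPM (0 to 27.4 CPM) in primary lines, with a log2 difference of 2.91 (SE 1.11) and an adjusted p of 0.538 by edgeR. It was set beside the members after its values were seen.

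The genes next to members with an extreme value were looked up after those values were seen, taking the 3 on each side with a mean of at least 1 CPM. In HuH28, where IRS2 had no count, the neighbouring basement membrane collagen genes COL4A1 and COL4A2 had 649 and 943 CPM, against medians of 0.804 and 2.57 CPM over the lines. ABHD13, MYO16, RAB20 and TNFSF13B there ranked 2, 4, 13 and 14 from the highest. In TFK-1, ZNF358 near INSR had no count against a median of 29.5 CPM, and on the same side PEX11G had 0.78 CPM against 1.65 and ARHGEF18 43.0 CPM against 72.7, each at rank 17 of the 20 lines. VAV1, on the other side, had 46.2 CPM, the highest of the lines. ADGRE1 and ZNF557, also on that side, ranked 10 and 16 from the highest. In TGBC14TKB, the neighbours CUL3 and RHBDD1 of IRS1 were at their lowest of the 20 lines, with 40.8 and 13.2 CPM. The other neighbours there were not: DOCK10, FAM124B, COL4A3 and COL4A4 ranked 7, 8, 10 and 14 from the highest. In SNU-245, also low in IRS1, CUL3 was at its highest, with 140 CPM, and RHBDD1 had 20.0 CPM. DOCK10 and FAM124B ranked 9 and 10 there, and COL4A3 and COL4A4 both ranked 17. In HuH28, TNS1, beside IGFBP5 and IGFBP2, was at its highest with 596 CPM, and RPL37A at its lowest with 201 CPM. MARCHF4, ARPC2, SMARCAL1 and AAMP ranked 3, 5, 13 and 18 there. Around IGF1R in TFK-1, its highest line, TTC23, SYNM, LRRC28, NR2F2, NR2F2-AS1 and ARRDC4 ranked 1, 2, 3, 5, 8 and 13. Around IGFBP6 in Mz-ChA-2, its lowest line, TNS2, CSAD, TNS2-AS1 and ZNF740 ranked 6, 7, 12 and 18. SPRYD3 and ITGB7 both ranked 19 in that line.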
